A study of Mus musculus with 14 samples.

Results

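The m6A peak list of mouse brain after acupuncture held 50105 peaks, all of which were taken, out of 153110 peaks in the 3 lists of the study (50105 acupuncture, 54754 ICH and 48251 sham). N6-methyladenosine (m6A) was mapped by immunoprecipitation (IP) of fragmented poly(A) RNA with an antibody against the mark, beside unselected input RNA. The acupuncture mice had an intracerebral haemorrhage (ICH) and were treated at the GV20 point, on the head, for 7 consecutive days. The ICH mice are labelled autologous blood, the agent of the haemorrhage model, and the sham mice sham operation. The list rests on 2 acupuncture IP libraries and their 2 inputs, of 14 libraries in all, and the ICH and sham lists on the IP libraries of 2 and 3 samples. The labels give the tissue only as brain, with no strain, age, sex or region. Nothing in them ties a replicate to an animal of its own, so p-values here measure only the spread between these samples, which may be technical. Markers of neurons, astrocytes, oligodendrocytes, microglia and endothelium (5 genes each) were all detected in the acupuncture inputs, from 4.22 FPKM for Flt1 to 265 FPKM for Mbp, and all carried an acupuncture peak. Each list gives 1 value per peak for its whole group, so single peaks have no replicate error.

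In cells, m6A is placed on RNA by a nuclear writer complex built around METTL3 and METTL14, can be removed by FTO and ALKBH5, and is bound by reader proteins such as the YTH family, which affect splicing, export, translation and decay. It is found mostly near stop codons and in 3′ untranslated regions (UTRs), in a short sequence context of which GGAC is a common form. Brain RNA is rich in the mark, and many transcripts of synapses, axons and transcription factors carry it. An IP peak marks a stretch of transcript and not a base, and the antibody also binds the related cap modification m6Am at transcript starts.

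A gene's first transcribed bases were available as sequence, which allowed 764 starts lying wholly inside an acupuncture peak of at most 1000 bp to be read. GGAC was present in the first 50 transcribed bases of 13 of 66 starts inside acupuncture-only peaks (19.7%), those that overlap no ICH or sham peak on the same strand. It was present in 23.6% of 542 starts inside peaks that overlap both other lists, and in 18.9% of all 32851 starts of the table, so acupuncture-only starts stood near the share over all starts. GGACT, which is also counted as GGAC, was present in 3.03% of the starts in acupuncture-only peaks and in 5.76% of all starts. Only the transcribed strand was searched. Among these 13 sites, the 6 with the smallest peak p in genes of at least 1 FPKM in both acupuncture libraries are shown as examples of the letters inside acupuncture-only peaks, for which sequence was read at starts only. They were chosen after their values were seen. Sequences are from RefSeq (GRCm38.p6), run 5′ to 3′ on the transcribed strand, and have the first GGAC in capitals. The Zfr2 sequence holds another GGAC, in small letters.
Gatm, chr2:122611235-122611264, minus strand: agcttggcgactaGGACcttgtgcacgcgg
Sesn2, chr4:132510407-132510436, minus strand: cttcccgagcagcgctggccactgcGGACt
Abhd16a, chr17:35089291-35089320, plus strand: ctgaggccgagGGACagcggcccgagccgg
Phtf1, chr3:103968112-103968141, plus strand: ccaaaggagacaaGGACatgaagtaaacac
Dbi, chr1:120120883-120120912, minus strand: gctgtgggtttggGGACagccgggtctatt
Zfr2, chr10:81233167-81233196, plus strand: gtgggctccgggaGGACgtggacatggcgg
All 6 peaks are annotated as 5′ UTR. Gatm, an enzyme of creatine synthesis, had a peak with a log2 enrichment of IP over input of 0.89 and a p of 1.58e-13, and its input level was 29.4 and 25.0 FPKM in the acupuncture libraries. Sesn2, a stress-induced regulator of the mTORC1 pathway, had a log2 enrichment of 1.38, at 4.13 and 4.25 FPKM in the acupuncture inputs. For Dbi, an acyl-CoA binding protein, the log2 enrichment was 1.23 and the nearest ICH or sham peak lay 75 bp away. The Sesn2 and Gatm peaks lay 11067 and 16436 bp from the nearest peak of another list.

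Hairpins of microRNAs, small RNAs that are cut from longer transcripts and repress messages through a seed at bases 2 to 8, also lay inside peaks. Of 1005 hairpins in the RefSeq table, 32 lay wholly inside an acupuncture peak of at most 1000 bp on the same strand, and 27 of these hairpins lay in a peak that overlapped both other lists. The hairpin itself held GGAC in 40.6% of the 32, beside 24.5% of all hairpins. The peaks measure poly(A) RNA that spans the hairpin, not the mature microRNA. The hairpins give 55 mature microRNAs with 55 different seeds. The 4 shown lie in peaks assigned to a microRNA gene or to the host Aopep, and were chosen after the values were seen; the fifth is the 1 hairpin inside an acupuncture-only peak. Sequences are from RefSeq (GRCm38.p6) with the seed in capitals.
let-7b-5p, chr15:85707325-85707346, plus strand: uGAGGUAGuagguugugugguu
miR-27b-3p, chr13:63300760-63300780, plus strand: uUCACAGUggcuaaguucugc
miR-29c-3p, chr1:195037600-195037621, plus strand: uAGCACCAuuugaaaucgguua
miR-377-3p, chr12:109740553-109740574, plus strand: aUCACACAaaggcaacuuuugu
miR-8093, chr2:32687706-32687726, minus strand: uUGGGGAGcagagcaugagug
The peak over the let-7b hairpin had a log2 enrichment of 1.66 (p 5.81e-30), that over miR-27b, in Aopep, 1.5 (p 0.00203), and that over miR-29c 1.33 (p 2.04e-222). All 3 overlapped peaks of both other lists, whereas the miR-377 peak, with a log2 enrichment of 0.83, did not. The peak over miR-8093 lay in Fpgs, a folate enzyme gene, and was among the weaker ones, with a log2 enrichment of 0.46 and a p of 0.0331.

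Peaks were spread over 17435 genes, with a median of 2 and a mean of 2.87 peaks per gene. One peak was found in 5372 genes, 2 or 3 in 6983 and 4 or more in 5080, of which 219 had at least 10. The ICH list covered 17511 genes with a median of 3 peaks and the sham list 17083 genes with a median of 2. Whether a gene carried a peak went with its input level. In the acupuncture inputs 13829 genes averaged 1 FPKM or more, and 12993 of them carried one. By level, the share was 4.73% of genes listed at 0 FPKM, 10.3% up to 0.1 FPKM, 49.5% from 0.1 to 1 FPKM and 91.3% from 1 to 5 FPKM. It was 96.7% from 5 to 20 FPKM and 95.1% above 20 FPKM. The mean number of peaks in genes with any was 3.37 from 1 to 5 FPKM and 2.65 above 20 FPKM, so the most abundant RNAs did not carry the most peaks.

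The gene with the most peaks was Syne1, which links the nucleus to the cytoskeleton (chromosome 10, 5020917 to 5551482) and had 26, 20 of them in coding exons. Macf1 had 22 and Dst 20, both linkers of microtubules and actin. Kmt2d, a histone H3 lysine methyltransferase, had 18 and Mdn1, a giant ATPase of ribosome assembly, 17. Hnrnpr, an RNA-binding protein, Stard9, a kinesin, and Zfhx2, a homeobox factor, had 16 each. In Hnrnpr 15 of the 16 were annotated as 3′ UTR, in Stard9 14, and in Mdn1 16 of 17 as exonic. Dnmt3a, a DNA methyltransferase, Itsn1, an endocytic scaffold, and the long non-coding RNA Kcnq1ot1, which silences imprinted genes in cis, had 15 each. Galnt2l was assigned 24 peaks, all intronic, but its annotated span ran from 119910841 to 124345722 on chromosome 8 and it has no FPKM row, so its peaks can lie in other genes within that span. Input levels of these genes were modest: Syne1 was at 7.48 and 8.63 FPKM in the acupuncture libraries, Mdn1 at 1.76 and 2.15 FPKM and Kcnq1ot1 at 0.271 and 0.266 FPKM.

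By the authors' annotation, 54.7% of the acupuncture peaks lay in a 3′ UTR, 20.4% in a coding exon, 11.2% in a 5′ UTR, 8.41% in an exon of a non-coding RNA and 5.01% in an intron. The ICH list had 52.3% and the sham list 54.5% in the 3′ UTR. Among the 5573 acupuncture-only peaks, the 3′ UTR share was 35.1%, against 62.1% of the 34448 peaks that overlapped both other lists. Coding exons took 32.6% of acupuncture-only peaks and 15.6% of peaks in all 3 lists, and introns 12.3% and 2.65%. Peaks shared with ICH but not sham were nearer to acupuncture-only peaks, with 41.3% in 3′ UTRs, 29.0% in coding exons and 9.67% in introns. Those shared with sham but not ICH had 37.7%, 32.7% and 7.61%. Read by class, 7.14% of 3′ UTR peaks were acupuncture-only, 9.47% of 5′ UTR peaks, 13.5% of non-coding RNA peaks, 17.8% of exonic peaks and 27.3% of intronic peaks.

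**Figure D1:**
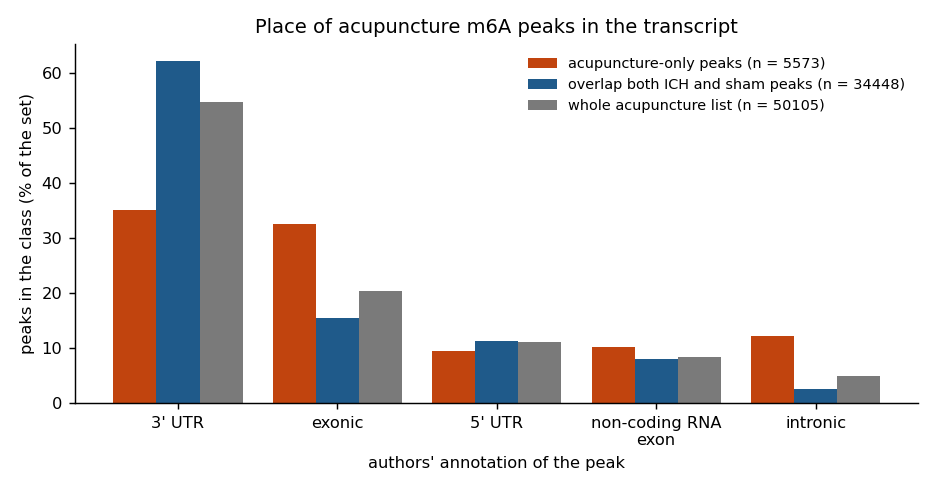
Share of peaks in each class of the authors' annotation (y axis, % of the set) for acupuncture-only peaks, peaks that overlap both ICH and sham peaks, and the whole acupuncture list. Of the 3 sets shown, the acupuncture-only bar is the lowest in the 3′ UTR class (35.1% against 62.1%) and the highest in the exonic and intronic classes. Peaks shared with only 1 other list are not shown and had 41.3% (ICH) and 37.7% (sham) in 3′ UTRs.

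Position along the gene showed the same shape, and it is not independent of the annotation, which also depends on where a peak lies. For peaks of at most 1000 bp, 53.7% of the list had their midpoint in the last 10% of the gene's span and 8.93% in the first 10%. The last 10% held 36.8% of acupuncture-only peaks, beside 62.1% of peaks in all 3 lists. The first 10% held 9.62% of acupuncture-only peaks and 8.34% of peaks in all 3 lists. Midpoints between the ends made up 53.6% of acupuncture-only peaks and 29.6% of peaks in all 3 lists. The restriction to 1000 bp was needed because peak coordinates run across introns: the median span was 536 bp, and 62.1% of peaks spanned at most 1000 bp.

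**Figure D2:**
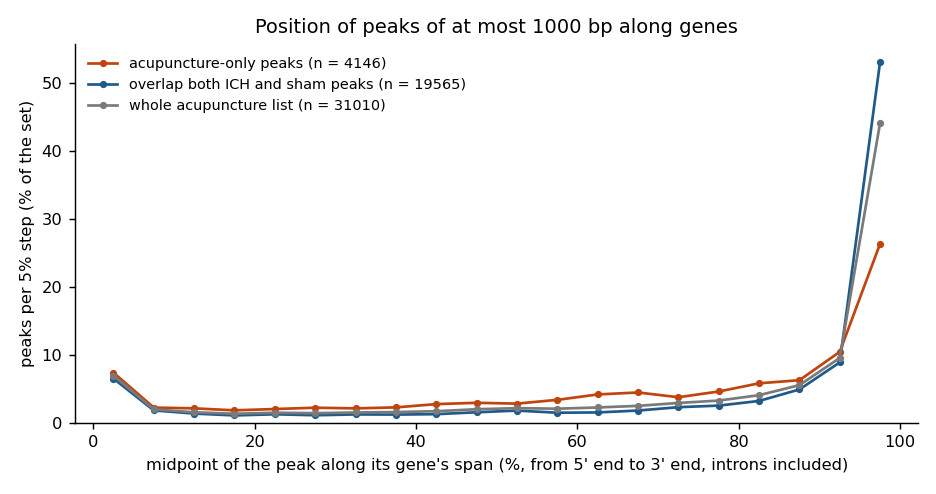
Midpoints of peaks of at most 1000 bp along their gene (x axis, % of the gene's genomic span from the 5′ to the 3′ end; y axis, % of the set in each step). All 3 sets are highest in the last step, where the acupuncture-only set holds 26.4% and the set in all 3 lists 53.2% of its peaks.

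The median log2 enrichment of IP over input in the acupuncture list was 1.12, with quartiles of 0.83 and 1.61. The ICH list had a median of 1.24 and the sham list of 1.07. By class, the median was 1.45 for non-coding RNA exons, 1.25 for 3′ UTRs, 1.10 for 5′ UTRs and 0.88 for both exons and introns. At least 4-fold enrichment (2 on the log2 scale) was reached by 15.0% of the list. For 1480 peaks with the same coordinates in all 3 lists, the median log2 enrichment was 1.49 in acupuncture, 1.85 in ICH and 1.35 in sham. Of these 1480 peaks, 14.1% had a higher value in acupuncture than in ICH and 67.0% a higher value than in sham. The acupuncture median of these peaks thus lay between those of the other groups. It did not for the 265 in exons of non-coding RNA, at 2.23 in acupuncture, 2.58 in ICH and 2.33 in sham. No test applies to these, since each list holds 1 value per peak.

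The strongest peaks of each class were taken among genes that averaged 1 FPKM or more in the acupuncture inputs. In 3′ UTRs they lay in Ankrd9 (log2 enrichment 5.11), Thap7 and Tro (both 5.02), Fam78b (4.96), Kcnj12, an inward rectifier potassium channel (4.94), and Tmem121 (4.90). All 6 overlapped both other lists and had an authors' p listed as 0. In coding exons they included Zfp451 (4.41), Usp47, a deubiquitinase (4.36), and Gon4l (4.35). In 5′ UTRs the highest was Mterf1a, a mitochondrial transcription terminator (7.98, authors' p 1.12e-11), which overlapped no ICH or sham peak. It was followed by Spen, a regulator of X inactivation and Notch targets (5.53), St6gal2 (5.09), Mob2 (5.01), Bdnf, the neurotrophin (5.00), and Myh10, a non-muscle myosin (4.63). Bdnf was low in the acupuncture inputs, at 1.54 and 2.01 FPKM, and its 5′ peak at chromosome 2, 109676132 to 109677142, overlapped both other lists. Among intronic peaks, Uvrag, which acts in autophagy, led with 7.39 (authors' p 2.63e-10) and overlapped both other lists. The next 3, in Litaf (6.24 and 6.08) and Nav2 (6.07), were acupuncture-only. Their authors' p was 1.11e-07, 2.34e-07 and 2.38e-07, so a large enrichment did not go with the smallest p.

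Most acupuncture peaks were shared. Of the 50105, 34448 (68.8%) overlapped at least 1 bp of a peak in both other lists on the same strand, 6930 overlapped ICH peaks only, 3154 sham peaks only, and 5573 (11.1%) overlapped neither. Measured the same way, 17.3% of ICH peaks and 13.7% of sham peaks were in their own list only, so the acupuncture list had the smallest share of peaks of its own. At the level of genes, counted by the gene assigned to each peak, the lists were closer: 15909 of the 17435 genes (91.2%) had a peak in all 3, and 474 (2.72%) in the acupuncture list only. Each list keeps only peaks past the authors' p of 0.05, so a peak absent from another list is not shown to differ there.

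Acupuncture-only peaks were weaker and shorter than peaks in all 3 lists, and about as strong as peaks shared with 1 other list. Their median log2 enrichment was 0.85, against 1.30 for peaks in all 3 lists, their median p 0.000426, against 1.20e-27, and their median span 250 bp, against 713 bp. At least 4-fold enrichment was reached by 7.05% of them and by 19.2% of peaks in all 3 lists. Peaks shared with ICH but not sham had a median log2 enrichment of 0.86 and those shared with sham but not ICH 0.83, and 4.44% and 5.90% of them reached 4-fold. The authors' adjusted p was not under 0.05 for 97 of them. The genes they lay in had a lower input level, with a median over peaks of 2.93 FPKM in the acupuncture inputs, against 4.66 FPKM for peaks in all 3 lists. Many lay beside a shared mark: 276 touched a peak of another list end to end, 1261 (22.6%) lay within 100 bp of one, 2566 (46.0%) within 500 bp, and 952 (17.1%) more than 10 kb away. The median distance was 675 bp.

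**Figure D3:**
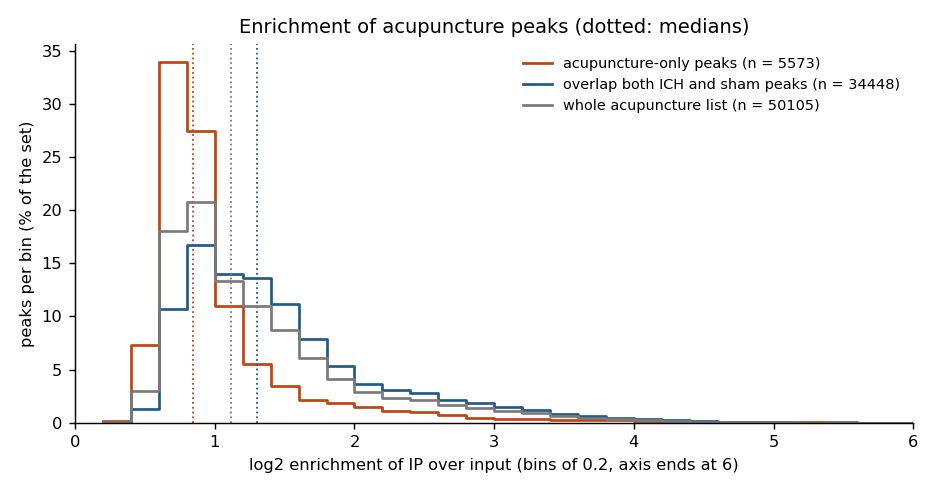
Distribution of the authors' log2 enrichment of IP over input (x axis, in bins of 0.2, cut at 6; y axis, % of the set) for acupuncture-only peaks, peaks in all 3 lists and the whole acupuncture list, with medians dotted. The acupuncture-only curve is shifted to the left, with a median of 0.85 against 1.30.

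The 5573 acupuncture-only peaks fell in 4243 genes, of which 3258 had 1, 741 had 2 and 244 had 3 or more. In 3646 of these genes (85.9%) another acupuncture peak was shared with ICH or sham. Pde1c, a phosphodiesterase that breaks down cAMP and cGMP, had the most, with 7 of its 11 peaks, at an input level of 0.302 and 0.499 FPKM. Mdn1 had 6 of 17, Fnbp1, a membrane-bending adaptor of endocytosis, 6 of 11, and Itpr1, the calcium release channel of the endoplasmic reticulum, 6 of 10. In Svep1, a matrix and adhesion protein, all 6 peaks were acupuncture-only at 0.0832 and 0.166 FPKM. In Ush1g, a scaffold of inner-ear hair cells, all 6 were acupuncture-only as well, while its input level was 0.0209 FPKM in acupuncture 1, 1.38 FPKM in acupuncture 2, and at most 0.291 FPKM in the ICH and sham libraries. The Ush1g RNA behind its peaks was thus high in 1 of the 2 acupuncture libraries, and the part of that library in the peaks was not tested. Hnrnpr and Kcnq1ot1 had 5 each.

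Of the acupuncture-only peaks, 3847 lay in genes with an approved symbol and at least 1 FPKM in both acupuncture libraries. The 20 with the smallest authors' p had a low enrichment, from 0.66 to 1.06 on the log2 scale. The smallest p, 1.0e-301, belonged to Atp1b1, the sodium pump's beta subunit, in a 100 bp exonic peak at chromosome 1, 164438409 to 164438508. Its log2 enrichment was 0.66 and its input level 380 and 390 FPKM. Peaks of this kind also lay in Trf, the iron carrier transferrin (0.71), Fam107a, an astrocyte-enriched actin regulator (0.81), Kif5a, a neuronal kinesin (0.77), Eno2, the neuronal enolase (0.74), Sparcl1, an astrocyte matrix protein (0.78), and Cnp, a myelin enzyme (0.84). Among the 20 were also Sap18, a histone deacetylase cofactor (0.98), Atp2a2, the calcium pump of the endoplasmic reticulum (0.71), and Matr3, a nuclear matrix protein (0.86). The peaks of Kif5a, Sparcl1, Cnp and Rpl30 each lay 25 bp from a peak of another list. Of the 20, 14 kept this status under all 6 other rules of overlap, width and p. Only the rule of overlap on either strand could add an overlap here. The others loosen the overlap or select by width or p. Rps12-ps3, also among them, is a pseudogene of a ribosomal protein and may share reads with its parent gene.

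The 20 with the largest enrichment lay between 2.83 and 6.24 on the log2 scale, 10 in 3′ UTRs and 6 in introns. Of the 20, 19 kept their status under all 6 rules, of which only overlap on either strand could add an overlap. Litaf, a regulator of endosomes and of TNF transcription, held both of the highest, 2 intronic peaks of 100 bp at chromosome 16, 11061185 to 11061284 and 11061310 to 11061409 (6.08 and 6.24). They lay more than 13 kb from any ICH or sham peak (13626 and 13501 bp), at 6.76 and 6.12 FPKM for the whole gene. Their authors' p was 2.34e-07 and 1.11e-07, and the input within the intron was not read. An intronic peak of Nav2, neuron navigator 2, had 6.07 and lay 250 bp from another peak. Aldh1a1, which makes retinoic acid, had 4.21. In 3′ UTRs, Cbln1, a synapse organiser of the cerebellum, had 3.82, in a peak that touched a peak of another list. Tmcc1, an endoplasmic reticulum membrane protein, had 3.42, Mosmo, a regulator of Hedgehog signalling, 3.37, and Bcl7a, a subunit of BAF chromatin remodellers, 3.30. Aldh3a2, which oxidises fatty aldehydes, had 3.15 and Stx8, a SNARE of endosomes, 2.98. Cbln1 differed between the acupuncture libraries, at 1.94 and 5.61 FPKM. Pabpc1l2b-ps, a pseudogene that may share reads with related genes, had 5.59.

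The 474 genes to which only the acupuncture list assigned peaks were mostly low: 410 had 1 peak, the median acupuncture input was 0.255 FPKM, and 56 had a mean of at least 1 FPKM. Of the 474, 450 had an acupuncture-only peak. In the others every peak overlapped an ICH or sham peak that is not assigned to that gene. Clec4a1, a C-type lectin receptor of myeloid cells, had 1 peak in its 3′ UTR with a log2 enrichment of 1.31 and a p of 8.71e-23, 35012 bp from any peak of the other lists. Hpx, hemopexin, which binds free haem, had 1 peak in its 3′ UTR with 1.52, at 1.06 and 0.952 FPKM in acupuncture, 0.441 and 0 FPKM in ICH, and 0.0899 to 0.190 FPKM in sham. Ly6i, a surface protein of myeloid cells, had 1 with 1.44, at 0.883 and 1.91 FPKM in acupuncture, 0.113 and 0.457 FPKM in ICH and 0 FPKM in the 3 sham libraries. Il1f9, an interleukin 1 family cytokine, had 1 with 1.20 at 2.23 and 0.548 FPKM, and Trem3, a myeloid receptor, 1 with 1.14 at 2.08 and 0.716 FPKM. Dcn, the matrix proteoglycan decorin, had 3 peaks and none in the other lists, at 6.29 and 6.93 FPKM in acupuncture, 6.20 and 7.90 FPKM in ICH and 1.39 to 1.69 FPKM in sham. These genes passed a level set on the acupuncture libraries, so nothing is read from lower levels in the other groups. The part of the RNA level in these peak calls was not tested. These 6 genes were picked after the values were seen, from those with an approved symbol and 1 FPKM or more on average.

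The authors' deposited tables of differential peaks compare IP over input between acupuncture and each other group. Of the acupuncture-only peaks, 283 (5.08%) overlapped a row of the authors' deposited table that was higher in acupuncture than in ICH at their adjusted p under 0.05, beside 4.61% of all acupuncture peaks. In the authors' deposited table against sham the count was 404 (7.25%), beside 12.4% of all acupuncture peaks. Rows lower in acupuncture overlapped 35 acupuncture-only peaks (0.628%) against ICH and 24 (0.431%) against sham in the authors' deposited tables, beside 22.7% and 7.68% of all acupuncture peaks. A total of 84 (1.51%) were higher in both of the authors' deposited tables, beside 366 (0.730%) of all acupuncture peaks. Both tables share the acupuncture libraries, and rows were matched by the largest overlap on the same strand. Acupuncture-only peaks were picked from peak calls of these same groups. A surplus of higher over lower rows is thus built into the choice and is no separate evidence. A row of any kind in the authors' deposited tables overlapped 10.9% of acupuncture-only peaks against ICH and 14.4% against sham, beside 36.2% and 30.8% of all acupuncture peaks.

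Of the peaks higher in both, 62 had an approved symbol and at least 1 FPKM, and those named here were chosen after the values were seen. Since the peaks were picked for being higher, their adjusted p-values are no separate evidence. The values are those of the row with the largest overlap, whose coordinates can differ from those of the peak. The 3′ UTR peak of Sap18 at chromosome 14, 57801973 to 57802497, had a log2 enrichment of 0.98 in the acupuncture list. In the authors' deposited tables, the rows overlapping it had 1.06 in acupuncture and 0.55 in ICH (authors' adjusted p 1.20e-10), and 0.99 in acupuncture and 0.33 in sham (adjusted p 4.52e-17). For Gopc, a Golgi trafficking protein, the authors' deposited tables gave 2.25 in acupuncture and 0.54 in ICH (adjusted p 6.00e-07), and 2.22 in acupuncture and 0.00 in sham (adjusted p 5.04e-13). Pebp1, an inhibitor of the RAF kinase pathway, had the widest gap among the first 14 by peak p, 4.92 in acupuncture and -0.46 in ICH, and 4.93 in acupuncture and -1.08 in sham, in the authors' deposited tables. Its own value in the acupuncture peak list was only 0.60. The matched rows need not cover the same stretch, so these values are not compared. Sptan1, the brain spectrin, had 0.95 in acupuncture and 0.64 in ICH (adjusted p 0.00206), and 0.83 in acupuncture and 0.42 in sham (adjusted p 4.26e-06) in the authors' deposited tables. Cd37, a tetraspanin of leukocytes, had 1.27 in acupuncture and 0.68 in ICH (adjusted p 0.00470), and 1.24 in acupuncture and 0.45 in sham (adjusted p 0.0397) in the authors' deposited tables. The peak at the Sesn2 start shown above was also among the 62, with 1.34 in acupuncture and 0.37 in ICH (adjusted p 0.0498), and 1.42 in acupuncture and -0.57 in sham (adjusted p 0.000165) in the authors' deposited tables. Entpd4b, a nucleotidase of the Golgi, had 1.54 in acupuncture and -1.16 in ICH in the authors' deposited table (adjusted p 2.68e-12). The row overlapping an acupuncture-only peak did not always have a higher value in acupuncture. For Atp1b1 the authors' deposited tables gave 0.57 in acupuncture and 0.70 in ICH, and 0.50 in acupuncture and 0.61 in sham. For Kif5a the authors' deposited table gave 0.75 in acupuncture and 0.91 in ICH, and for Cnp 0.83 in acupuncture and 1.07 in ICH.

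The RNAs of the m6A machinery also carried peaks. All 10 genes listed as m6A writers, Mettl5 and Mettl16 among them, had peaks, beside 94% of genes that averaged 1 FPKM or more in acupuncture. Of their 37 peaks 3 (8.11%) were acupuncture-only, beside 11.1% of the whole list, in Rbm15b and Mettl14 (3′ UTR) and Mettl5 (exon). Mettl3, the catalytic subunit of the writer complex, had 4 peaks, all in the 3′ UTR. Its level was 2.65 and 3.35 FPKM in acupuncture, 2.70 and 2.37 FPKM in ICH and 2.58 to 2.72 FPKM in sham. The strongest peak of the group lay in Rbm15, an RNA-binding adaptor of the complex, with a log2 enrichment of 3.11. The single acupuncture-only peak of Mettl14, the partner of METTL3, was near the list's limit, with 0.69 and a p of 0.0437, while that of Rbm15b, an adaptor like RBM15, had 0.85 and a p of 8.23e-11. Of 13 erasers and readers, 11 (84.6%) had peaks, and the other 2, Igf2bp1 and Igf2bp2, were below 1 FPKM in all 7 libraries. The erasers Fto and Alkbh5 had 4 peaks each, none acupuncture-only. Ythdc1, the nuclear reader, had 8 peaks, all of them shared with both other lists. Ythdc2, a reader with helicase activity, had 4 with 2 acupuncture-only, and Fmr1, Hnrnpc, Igf2bp3 and Ythdf2 had 1 acupuncture-only peak each. Igf2bp3 was at only 0.0448 and 0.0196 FPKM in the acupuncture inputs, below Igf2bp2 at 0.284 and 0.276 FPKM. Of the tested genes of both lists, 10 each, none was called in the input RNA against ICH or sham, and the lists' median log2 fold changes lay between -0.10 and -0.02, beside 0.05 against ICH and 0.04 against sham over all genes.

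Genes were also grouped into 40 lists by function. In 33 lists every member found had an acupuncture peak. Of all genes averaging 1 FPKM or more in acupuncture, 94% carried a peak and 22.4% an acupuncture-only peak, and 21 lists lay above the 22.4%. The highest shares were those of chromatin and histone methylation, with acupuncture-only peaks in 12 of 20 genes, and of oligodendrocyte markers, with 3 of 5 (Cnp, Mbp and Mobp, all genes of myelin). Cytoskeleton and motors followed with 11 of 20, and axon guidance with 10 of 23. Per peak these 4 lists stood closer to the whole list, of which 11.1% was acupuncture-only. The share was 9.63% of the 135 peaks of chromatin genes, 12.7% of the 157 of cytoskeleton genes and 11.9% of the 126 of axon guidance genes. For the 5 oligodendrocyte markers it was 12.5% of 24 peaks. In a longer list of myelin and oligodendrocyte lineage genes, 4 of 18 genes (22.2%) and 6.90% of the 58 peaks were acupuncture-only. The chromatin genes were Arid1a, Arid1b, Chd8, Ehmt1, Ep300, Kdm1a, Kdm5b, Kmt2a, Kmt2b, Kmt2c, Kmt2d and Setd2, which remodel nucleosomes or write and erase histone marks. In Setd2, the H3K36 methyltransferase, the peak was intronic with a log2 enrichment of 1.22, and in Chd8, a remodeller, exonic with 0.98.

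**Figure D4:**
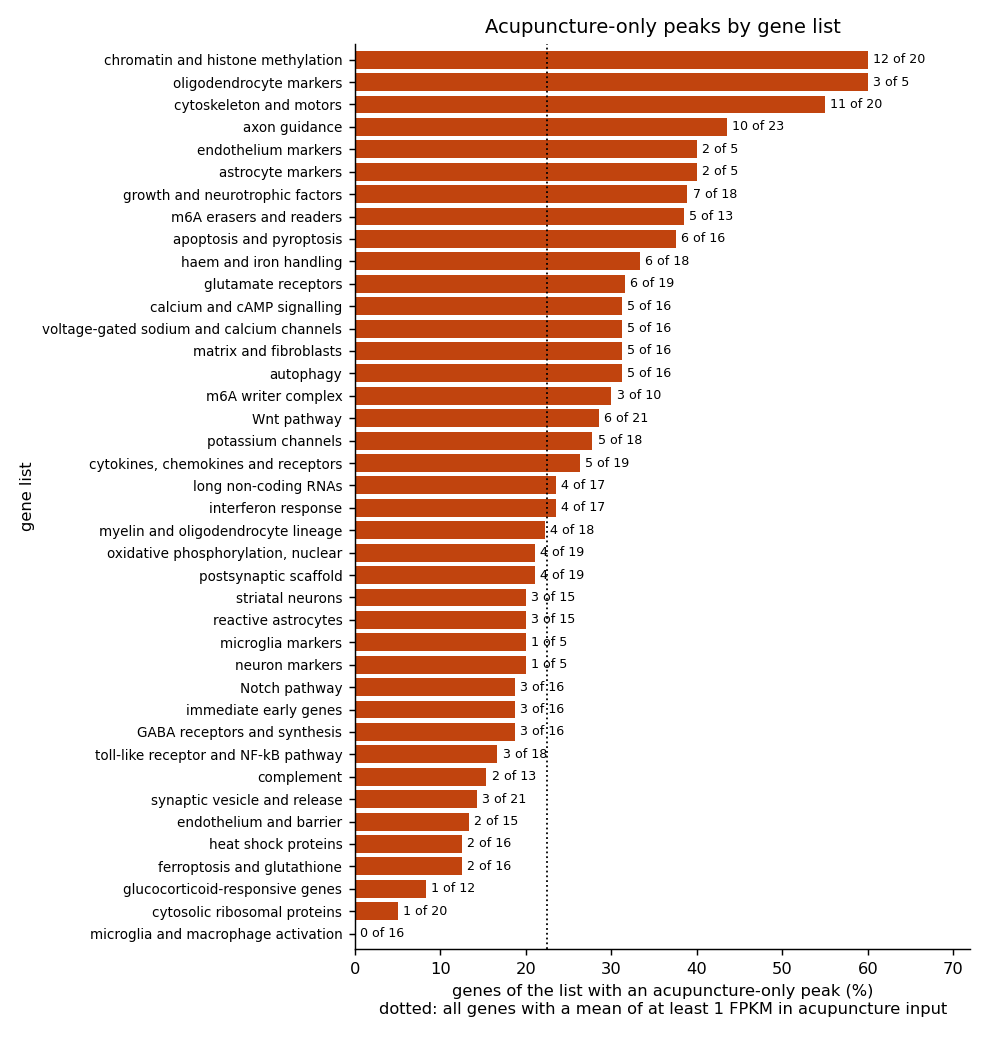
Share of genes with an acupuncture-only peak in each of the 40 gene lists (x axis, %; counts beside the bars), with the share of all genes of at least 1 FPKM dotted at 22.4%. Chromatin genes and the 5 oligodendrocyte markers lie highest at 60.0%, and microglia and macrophage activation genes lie at 0. The longer list of myelin and oligodendrocyte lineage genes lies at 22.2%.

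Among axon guidance genes, acupuncture-only peaks lay in the repulsive ligands Slit2 (1.37) and Slit3, their receptors Robo1 and Robo2 (0.86), the semaphorins Sema3a and Sema3e, the plexin receptors Plxna1 and Plxna4 (1.0), and the ephrin receptors Epha5 and Ephb2 (2.16). The values in brackets are log2 enrichments of the gene's acupuncture-only peak with the smallest p, as are those that follow. Slit2 and Ephb2 were low, at 0.888 and 0.553 FPKM and at 1.19 and 0.728 FPKM. Of 19 glutamate receptor genes 6 (31.6%) had such peaks, beside 22.4% of all genes averaging 1 FPKM or more in acupuncture. They were Gria3 (0.81), Gria4 (0.81), Grik1, Grin1 (0.92), Grin2a and Grin2c (0.80), which code for AMPA, kainate and NMDA receptor subunits. Of 16 sodium and calcium channel genes 5 (31.25%) did: Cacna1a (0.76), Cacna1e (0.98), Cacna1g (0.82), Cacna2d2 (0.76) and Scn8a. Per peak both lists lay below the 11.1% of the whole list, at 7.55% of 106 glutamate receptor peaks and 9.20% of 87 channel peaks. Calcium and cAMP signalling genes had 15 acupuncture-only peaks among 85, or 17.6%, beside the same 11.1%, with 6 of the 15 in Itpr1 (0.78). Synaptic vesicle genes had 5 among 94, or 5.32%, in Pclo and Rims2 (0.79 and 0.90), active zone scaffolds, and in Unc13b (0.82), a vesicle priming factor. Ctnnb1, the beta-catenin of Wnt signalling and cell contacts, had a 5′ UTR peak with 1.49, 25126 bp from another list's peak, at 63.6 and 63.1 FPKM. Lrp6, a Wnt coreceptor, had an exonic peak with 2.02.

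Immune and injury genes carried a median of 1 peak (cytokines) or 2 peaks (microglia activation, reactive astrocytes, complement and interferon), beside 3 over all genes with a peak and 1 FPKM or more. Microglia and macrophage activation genes had 32 peaks in 16 genes and none was acupuncture-only, although 14 of the 15 tested were called higher in acupuncture than in sham in the input RNA, beside 8.47% of all tested genes. Cytosolic ribosomal protein genes had 1 acupuncture-only peak among 41 (2.44%), beside 11.1% of the whole list. Cytokine and chemokine genes had 6 among 38 (15.8%), in Ccl4 (log2 enrichment of the peak with the smallest p 0.92), Il1a (1.40), Tnf (0.95), Ccr2 (1.37) and Il1r1. Nlrp3, the sensor of the inflammasome, had a 5′ UTR peak with 1.49, and its adaptor Pycard a 3′ UTR peak with 1.20. Of 18 haem and iron genes found in the table, 6 had acupuncture-only peaks, 8 peaks among 39 or 20.5%, beside 11.1% of the whole list. They were Cd163, the scavenger receptor for haemoglobin (2.56, at 0.398 and 0.590 FPKM), Hpx, Ireb2, an iron-responsive RNA-binding protein (0.73), Ncoa4, the receptor for ferritin breakdown (0.68), Slc11a1, a metal transporter of phagocytes, and Trf (0.71). In matrix genes, the 3′ UTR peak of Dcn had 1.06 and lay 50147 bp from another list's peak, and Mmp14, a membrane-bound protease, had an intronic peak with 2.71.

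Hmox1, which degrades haem and is induced by it, had none of these peaks. It was the most abundant gene with an approved symbol and no acupuncture peak, at 240 and 249 FPKM in acupuncture, 144 and 141 FPKM in ICH and 2.08 to 2.67 FPKM in sham, and no peak of the ICH or sham lists overlapped it on its strand (chromosome 8, 75093621 to 75100589). Of 2033 genes that averaged 20 FPKM or more in acupuncture, 100 had no assigned peak. The next most abundant were largely pseudogenes, mitochondrial genes and haemoglobins, such as Hbb-bs at 91.1 and 127 FPKM in acupuncture. Dynlrb1, a dynein light chain at 132 and 121 FPKM in acupuncture, had a peak in the sham list. These 3 genes were chosen after their values were seen.

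Input RNA was compared to see whether genes with acupuncture-only peaks also differed in level. The test was limma on log2(FPKM + 1), fitted over the 13666 genes that averaged 1 FPKM or more across the 7 inputs, and fold changes are on that scale. Because tissue was bulk, fewer cells of a type and less RNA per cell cannot be told apart. Of the 3042 tested genes with an acupuncture-only peak, 231 (7.59%) were called higher in acupuncture than in sham, beside 8.47% of all tested genes, and 135 (4.44%) lower, beside 3.22%. Left out in turn, either ICH library raised the first count to 366 or 367 and the second to 359 or 360, while leaving out any single acupuncture or sham library gave 130 to 157 higher and 39 to 70 lower. Under quantile normalization the calls against sham split into 187 higher and 223 lower among these genes, and into 923 higher and 721 lower over all genes, in place of 1158 and 440. Against ICH, 1 of the 3042 was called higher, beside 0.0366% of all genes, and 0 lower by limma, with 628 at an unadjusted p under 0.05, beside 2754 of all 13666. Without ICH replicate 1, 500 were called higher and 592 lower against ICH, beside 3139 and 1966 of all genes. That fit has 1 ICH library, which is assumed to vary like the other groups.

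Of the 231 genes called higher than in sham, the 10 with the largest fold changes and no overlap with sham are described. Saa3, an acute phase protein, was at 324 and 297 FPKM in acupuncture, 62.7 and 26.1 FPKM in ICH, and 2.60, 2.67 and 2.88 FPKM in sham. It was higher in acupuncture than in sham by 6.39 on the log2 scale (SE 0.316, limma adjusted p 8.08e-05), and its acupuncture-only peak was weak, with a log2 enrichment of 0.55 and an adjusted peak p of 0.0506. Lilrb4a, an inhibitory receptor of myeloid cells, was at 10.05 and 10.03 FPKM in acupuncture, 5.73 and 6.66 FPKM in ICH and 0.214, 0.288 and 0.186 FPKM in sham, a difference from sham of 3.17 (SE 0.10, limma adjusted p 2.36e-05). Clec4a1 was at 8.82 and 6.17 FPKM in acupuncture, 1.90 and 4.80 FPKM in ICH and 0.224, 0.250 and 0.236 FPKM in sham, a difference from sham of 2.76 (SE 0.285, limma adjusted p 0.00140). For these 3 genes both acupuncture libraries lay above all ICH and all sham libraries. Ncf1, a subunit of the phagocyte oxidase, and Slc11a1 differed from sham by 2.59 and 2.51, C3ar1, the receptor for a complement fragment, by 2.51, and Ctsc, a lysosomal protease, by 2.57. Rab32, a small GTPase of lysosome-related organelles, differed from sham by 2.87, Capg, an actin-capping protein, by 2.62, and Lgals3bp, a secreted galectin ligand, by 2.49. In C3ar1 and Lgals3bp the acupuncture and ICH libraries overlapped. All 10 were called under each alternative tried. Of the 5 microglia markers 4 were called higher and 1 lower than in sham, beside 8.47% and 3.22% of all tested genes. C1qa was at 209 and 223 FPKM in acupuncture, 176 and 72.5 FPKM in ICH and 21.1 to 33.3 FPKM in sham. The summed level of the 5 markers was 283 and 288 FPKM in acupuncture, 260 and 155 FPKM in ICH and 57.3 to 75.4 FPKM in sham, and none was at 0. C1qa made up most of the sum in both acupuncture libraries. P2ry12 was the marker called lower than in sham. It was at 6.99 and 5.55 FPKM in acupuncture, 12.3 and 22.1 FPKM in ICH and 11.97 to 12.93 FPKM in sham. P2ry12 and Csf1r were lower in both acupuncture libraries than in both ICH libraries. For Cx3cr1 and Tmem119 the acupuncture and ICH libraries overlapped. The part of such cells in these differences was not tested.

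**Figure D5:**
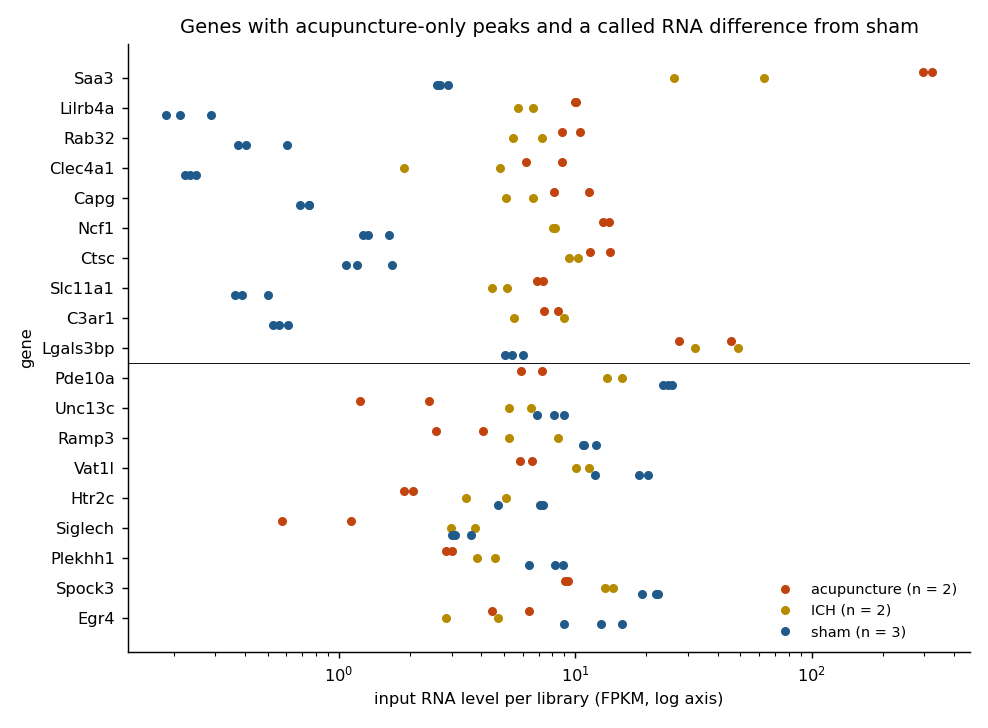
Input RNA level (x axis, FPKM on a log axis) in each acupuncture, ICH and sham library for 19 named genes that carry an acupuncture-only peak and were called against sham, 10 higher (above the line) and 9 lower. Acupuncture points lie right of all sham points in the upper part and left of them in the lower part.

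Among the genes called lower, those with the largest fold changes and no overlap with sham were taken by the same rule. Pde10a, a phosphodiesterase of striatal medium spiny neurons, was at 7.25 and 5.89 FPKM in acupuncture, 13.7 and 15.7 FPKM in ICH and 24.7, 23.5 and 25.8 FPKM in sham. It fell by 1.77 relative to sham on the log2 scale (SE 0.116, limma adjusted p 0.000215), carried 3 acupuncture-only peaks among 7, and its best one, in the 3′ UTR, had a log2 enrichment of 0.72 and lay 100 bp from another list's peak. Both acupuncture libraries lay below all ICH and sham libraries. Of 15 genes of striatal neurons, 13 were called lower than in sham, beside 3.22% of all tested genes. Their summed level was 229 and 177 FPKM in acupuncture, 283 and 236 FPKM in ICH and 512 to 555 FPKM in sham, with none at 0. For the 5 general neuron markers it was 566 and 553 FPKM in acupuncture, 594 and 852 FPKM in ICH and 613 to 689 FPKM in sham, with none called. The part of the sampled region or of these cells in the results was not tested. Unc13c, a presynaptic priming factor, fell by 1.70 relative to sham, Ramp3, a receptor partner, by 1.53, Vat1l by 1.29, Htr2c, a serotonin receptor, by 1.29, and Spock3, a proteoglycan, by 1.12. Plekhh1 fell by 1.16 relative to sham. Egr4, an activity-induced transcription factor, was at 4.44 and 6.40 FPKM in acupuncture, 2.85 and 4.73 FPKM in ICH and 8.99, 15.8 and 12.8 FPKM in sham, and its limma adjusted p of 0.0497 was over 0.05 under 6 alternatives, from 0.0547 with a pseudocount of 0.1 to 0.276 without acupuncture replicate 1. Vat1l was not called without either acupuncture library (limma adjusted p 0.0545 and 0.0757), nor was Htr2c (0.0565 and 0.0670). Siglech, a receptor of resting microglia and dendritic cells, was at 1.13 and 0.576 FPKM in acupuncture, 3.00 and 3.78 FPKM in ICH and 3.00, 3.11 and 3.63 FPKM in sham. Its ICH and sham libraries overlapped.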

How the data were processed

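N6-methyladenosine was mapped in 7 IP libraries with 7 inputs, from stranded poly(A) RNA per the labels' protocols. Peak lists, 1 per group, give the authors' log2 enrichment of IP over input, p-value, adjusted p-value and genomic span (peak length, introns included), per the file headers. The authors' deposited differential tables give log2 values per group and p-values. Gene levels are the authors' FPKM, so the depth of each library is unknown. HISAT2, StringTie, HOMER, fastp and edgeR are listed, with neither role nor version, per the submitters' processing notes. The peak caller, and whether replicates were pooled, are not given in the sources used here. Those notes name a human build, but the files hold mouse gene IDs. Of 25208 genes matched by symbol to RefSeq (GRCm38.p6), 96.3% had at least 1 end within 1000 bp of the files' coordinates, so coordinates are given as GRCm38.

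FPKM columns named control and EA were taken as sham and acupuncture by elimination, and 2 columns that match no sample were not used. Peaks were compared by at least 1 bp of span on the same strand, in Python 3.11.15 in place of bedtools. Input levels were fitted with limma 3.58.1 (R 4.3.3, trended variance, Benjamini-Hochberg adjustment, threshold 0.05) on log2(FPKM + 1) over all 7 inputs, and the fit was tested on simulated data. Named genes were those with the most peaks (12) or acupuncture-only peaks (8), the 6 strongest peaks per class, the 20 acupuncture-only peaks with the smallest p and the 20 with the largest enrichment, up to 10 called genes per direction, and up to 4 peaks per list. Members, lists and rules were chosen with earlier results of these data known. Some genes that the rules name are not reported here. Peak windows inside genes and exon blocks were not analysed here.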

Additional observations from a re-analysis of the deposited data

How the results depend on the processing

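Acupuncture-only peaks numbered 5573. They numbered 8564 when at least 50% of a peak had to be covered for it to count as shared, 7430 with a span limit of 1000 bp in all lists, 5291 on either strand, 5476 and 4169 at an adjusted p under 0.05 and 0.01, and 4155 among acupuncture peaks of at most 1000 bp, an alternative chosen after seeing the data. The acupuncture list held 31105 peaks at a span of at most 1000 bp. Overlap by exon blocks was not run. Against sham, calls (1598) ranged from 805 to 3215 without single libraries, and against ICH (5) from 2 to 5105, the last without ICH replicate 1. Among genes with acupuncture-only peaks, those ranges were 130 to 367 higher and 39 to 360 lower than in sham. Quantile normalization gave 223 lower there. The causes were not tested. None of the 20 genes tested by name against sham changed direction. The median shift of all genes stayed between -0.05 and 0.06 on the log2 scale.

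With the replicate block, which leaves sham replicate 3 without a partner, calls were 750 against sham and 3 against ICH, and 132 higher and 30 lower among genes with acupuncture-only peaks. Same-numbered libraries correlated by 0.094 (acupuncture with ICH), 0.033 and -0.012 (acupuncture with sham), so the numbers were not read as pairs. Htr2c was not called with the block (limma adjusted p 0.0560).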
